A study of Drosophila melanogaster with 8 samples.

Results

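Tetraspanins are small membrane proteins that cross the membrane several times and carry a small and a large loop outside the cell. They gather adhesion molecules, proteases and receptors into patches of the membrane, and they take part in endosomal sorting, in cell junctions and in Notch signalling. The fruit fly Drosophila melanogaster has a large family of them, and many members lie side by side in one cluster at map position 42E. The genes described here are those whose name in the deposited table begins with Tsp followed by a map position. They numbered 34 of the 13918 genes listed, 17 in the 42E cluster and 17 elsewhere. Thrombospondin, listed as Tsp without a map position, is no tetraspanin and was not counted.

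Both groups were whole Canton-S pupae, a wild-type strain, collected early in pupal life at stage P6, and the parent stock was kept at 25 °C. In the first group development took place at 3 g, in hypergravity, and in the control group at 1 g. The RNA was selected for poly(A) tails, and 4 pools of 4 pupae per group gave 1 library each. The series asks how the pupal transcriptome responds to development in hypergravity. The labels do not say whether pools of a group were raised in separate cultures, and the p-values cover only pool-to-pool spread. The labels used here give neither the sex of the pupae nor their time since pupariation in hours. Because whole animals were measured, fewer cells of a type and less RNA per cell cannot be told apart.

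Levels are in TPM (transcripts relative to a fixed library total), which are scaled to gene length, so that genes can be compared with one another. Depth is unknown. A gene was called when its adjusted p in a limma fit over the 12044 genes averaging 1 TPM or more was under 0.05. Changes are log2 of TPM plus 0.5 at 3 g over 1 g, given with their standard error (SE) over 4 pools a group. Of all genes tested, 4.28% were called, 2.23% as higher and 2.06% as lower, and 12.5% had groups that did not overlap.

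Markers of several tissues differed between the groups, and their values bear on what follows. The summed level of 20 salivary glue and early prepupal genes was 16703 to 44534 TPM at 3 g and 1565 to 3305 TPM at 1 g, with 13 of 16 tested members higher and Sgs4, Sgs5, Sgs7, Sgs8 and Eig71Ei at 0 in some library. The glue genes were a small part of this sum. Sgs3, Sgs7 and Sgs8 averaged 7.50, 7.53 and 24.5 TPM at 3 g, while Fbp1 averaged 4911 TPM and Eig71Eg 3740 TPM. At 1 g most of the sum was Lsp2, with 2217, 1383, 3073 and 1370 TPM. Lsp2 had 2130 to 3996 TPM at 3 g, so that its groups overlapped, and it was not called (adjusted p = 0.284, limma). These genes are named for their levels, after the values were seen. Muscle markers summed to 1127 to 1855 TPM at 3 g and 3481 to 13131 TPM at 1 g, with 8 of 9 lower, and neuronal markers to 162 to 227 TPM and 253 to 329 TPM, with 3 of 7 lower. Of 5 tested hemocyte markers 1 was higher, and of 3 tested Malpighian tubule markers 0 were called (limma, 0 at an unadjusted p under 0.05). In 3 g replicate 2 the male germline markers, and in control replicate 4 the photoreceptor and muscle markers, stood apart from the rest of the group.

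Every one of the 34 members was above 0 in all 8 libraries, and all were tested. Tsp42Ee was by far the most abundant, with 522, 594, 541 and 525 TPM at 3 g and 522, 471, 479 and 401 TPM at 1 g. It alone made up 26.5% to 29.2% of the summed TPM of the family at 3 g and 26.2% to 28.4% at 1 g. Next in order of mean level came Tsp42Ea, Tsp66E, Tsp42Ed and Tsp42Ep, the other members above 100 TPM. Their values in single libraries overlapped, so that this order does not exceed the spread between pools. At the low end 7 members averaged under 10 TPM, and the lowest was Tsp42En, with a mean of 0.825 ± 0.372 TPM at 3 g and 2.63 ± 0.866 TPM at 1 g (SD, n = 4 each). The median member of the 42E cluster stood at 20.4 TPM and that of the members elsewhere at 22.2 TPM, against 23.1 TPM for all genes tested. For 15 members the highest of the 8 libraries was under 2 times the lowest, while for 10 it was over 4 times the lowest.

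**Figure D1:**
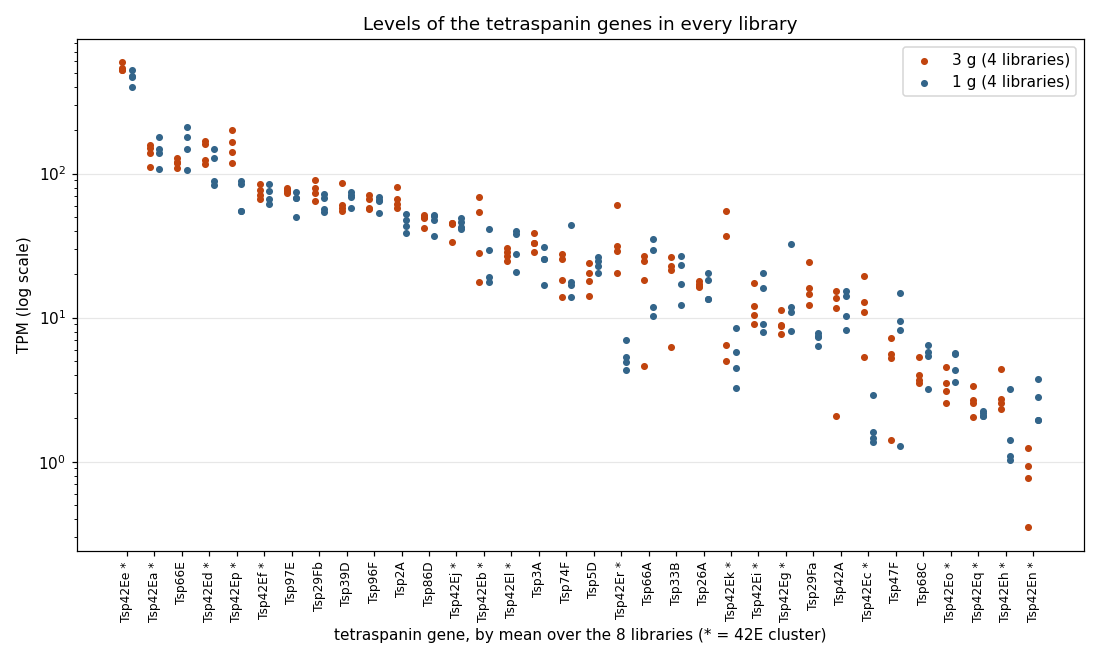
Each point is the level of a tetraspanin gene in 1 library, in TPM on a log scale, with the 4 libraries at 3 g left of the 4 at 1 g for each gene and genes ordered by their mean. Tsp42Ee lies above all other members in every library, and Tsp42Er and Tsp42Ec show clear gaps between the groups.

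Between 3 g and 1 g, 4 of the 34 members were called higher (11.8%, against 2.23% of all genes tested) and 0 lower (against 2.06%). Those called were Tsp42Er, Tsp42Ec and Tsp42Ep of the 42E cluster and Tsp29Fa on the left arm of chromosome 2. The name pattern leaves out TM4SF, with the synonym Tsp60A, which was called lower and is described below. At an unadjusted p under 0.05, 6 members were higher and 1 lower (limma, against 16.3% of all genes in either direction). The groups did not overlap for 7 members (20.6%, against 12.5% of all genes tested), of which 6 were higher (6.49% of all genes) and 1 lower (6% of all genes) at 3 g. The median change of all 34 was 0.03 on the log2 scale, close to the -0.02 of all genes tested, with 18 members above 0 and 16 below. For 21 of the 30 members that were not called, the 95% interval of the change lay within 1 log2 unit of 0.

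Tsp42Er showed the largest change of the family. Its levels were 20.3, 29.1, 60.8 and 31.2 TPM at 3 g and 5.35, 4.34, 6.98 and 4.92 TPM at 1 g. Even the lowest pool at 3 g lay well above the highest control pool. The log2 change was 2.51 ± 0.32 (SE, adjusted p = 0.00612, limma), and it was called without each single library in turn (2.21 to 2.73). The glue and early prepupal markers and, in the other direction, the muscle markers were separated between the same groups, and their part in this and the other calls was not tested.

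Tsp42Ec had 5.35, 12.8, 10.9 and 19.4 TPM at 3 g and 1.47, 1.61, 2.92 and 1.38 TPM at 1 g. It was under 3 TPM in each control and above 5 TPM in each pool at 3 g, so the groups did not overlap. Its log2 change was 2.34 ± 0.38 (SE, adjusted p = 0.0158, limma). Among fits that left out libraries, the call was lost without control replicate 2 (2.31, adjusted p = 0.0643) and without 3 g replicate 2 and control replicate 4 together (2.18, adjusted p = 0.0899).

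Tsp42Ep, the most abundant of the called members, had 140.4, 166, 202 and 118 TPM at 3 g and 89.5, 55.3, 84.6 and 54.7 TPM at 1 g. The pools at 3 g were all higher, with control replicates 1 and 3 nearest to them. The log2 change was 1.14 ± 0.23 (SE, adjusted p = 0.0362, limma). This call was the least firm of the 4, since it held without control replicate 1 (1.27) or 3 g replicate 4 and was lost without any 1 of the other 6 libraries (adjusted p = 0.0637 to 0.12), without 3 g replicate 2 and control replicate 4 together (adjusted p = 0.163) and under median-of-ratios rescaling (adjusted p = 0.0504). In the reference annotation Tsp42Ep overlaps Tsp42Eo on the other strand. With no stranded counting stated, reads from the shared stretch may be counted for either gene.

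Tsp29Fa had 14.5, 12.2, 24.2 and 16.0 TPM at 3 g and 7.34, 7.88, 6.35 and 7.51 TPM at 1 g. The controls were close together, and the spread was wider at 3 g. The log2 change was 1.11 ± 0.21 (SE, adjusted p = 0.0272, limma), and it was lost without 3 g replicate 4 or any 1 of the 4 control replicates (1.05 to 1.14, adjusted p = 0.054 to 0.0905). An antisense RNA gene, asRNA:CR46071, overlaps Tsp29Fa, so that its reads may be counted in.

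**Figure D2:**
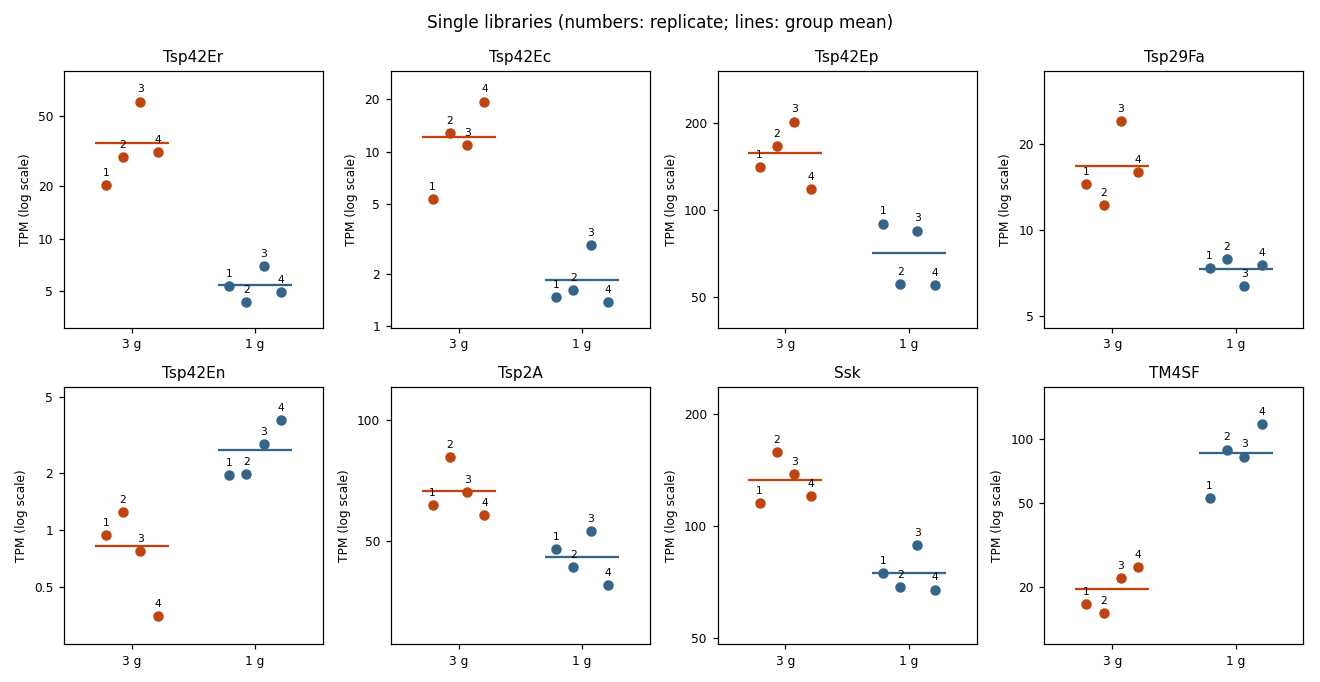
Level of 8 genes in single libraries in TPM, each panel on its own log scale, with 3 g left and 1 g right, numbers for the replicate and lines for group means. In all 8 panels the 4 pools at 3 g and the 4 at 1 g do not overlap, with 3 g lower for Tsp42En and TM4SF and higher for the others.

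In the 42E cluster 3 of 17 members were called (17.6%) and elsewhere 1 of 17 (5.88%), against 4.28% of all genes tested. The difference between these sets was not tested. The median change was 0.22 on the log2 scale for the 42E members and -0.01 for those elsewhere. Changes ranged between -1.25 and 2.51 in the cluster and between -0.55 and 1.11 elsewhere. Members of the cluster also varied more between pools of a group, with a median SD of 0.36 on the log2 scale, against 0.29 elsewhere and 0.28 for all genes tested. Summed over the cluster, levels were 1176, 1386, 1326 and 1218 TPM at 3 g and 1104, 942, 1093 and 955 TPM at 1 g, so that the groups did not overlap. The members elsewhere summed to 721, 644, 718 and 638 TPM at 3 g and 735, 714, 667 and 577 TPM at 1 g, and here the groups did overlap. The sum of the cluster is weighted by its abundant members. Without Tsp42Ee it was 653 to 793 TPM at 3 g and 471 to 614 TPM at 1 g. That sum still holds the called member Tsp42Ep, at 118 to 202 TPM at 3 g and 54.7 to 89.5 TPM at 1 g. In 3 g replicate 1, 140.4 of the 653 TPM were Tsp42Ep, and in control replicate 3, 84.6 of the 614 TPM. With Tsp42Ep taken out as well, that control pool lies above that pool at 3 g, so that the groups overlap.

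The calls were scattered along the cluster rather than adjacent. In the reference annotation the cluster runs from Tsp42Ea to Tsp42Er and holds 31 entries listed as genes, INE-1 transposable element insertions among them. Of these entries 17 bear the name pattern, 14 on the plus and 3 on the minus strand. Tsp42Ec stands near the start, Tsp42Ep near the far end and Tsp42Er last. Each called gene can be set against an uncalled member beside it. Within a library the ratio of Tsp42Er to its neighbour Tsp42Eq was 7.58 to 18.1 at 3 g and 2.00 to 3.37 at 1 g. That of Tsp42Ec to Tsp42Eb was 0.16 to 0.693 at 3 g and 0.0501 to 0.0906 at 1 g. Tsp42Eb overlaps Tsp42Ea on the same strand, so that its own level is uncertain. Tsp42Ep was listed at 36.4 to 57.5 times Tsp42Eo at 3 g and 9.71 to 23.8 times at 1 g, a ratio that depends on how reads of these overlapping genes were split. At 29F the ratio of Tsp29Fa to the adjacent Tsp29Fb was 0.153 to 0.27 at 3 g and 0.0886 to 0.139 at 1 g, with Tsp29Fb itself at 76.7 ± 10.8 TPM at 3 g and 62.6 ± 8.36 TPM at 1 g (log2 change 0.29 ± 0.15, adjusted p = 0.417, limma). These pairs were picked because 1 gene of each was called, so the ratios are given without a test.

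**Figure D3:**
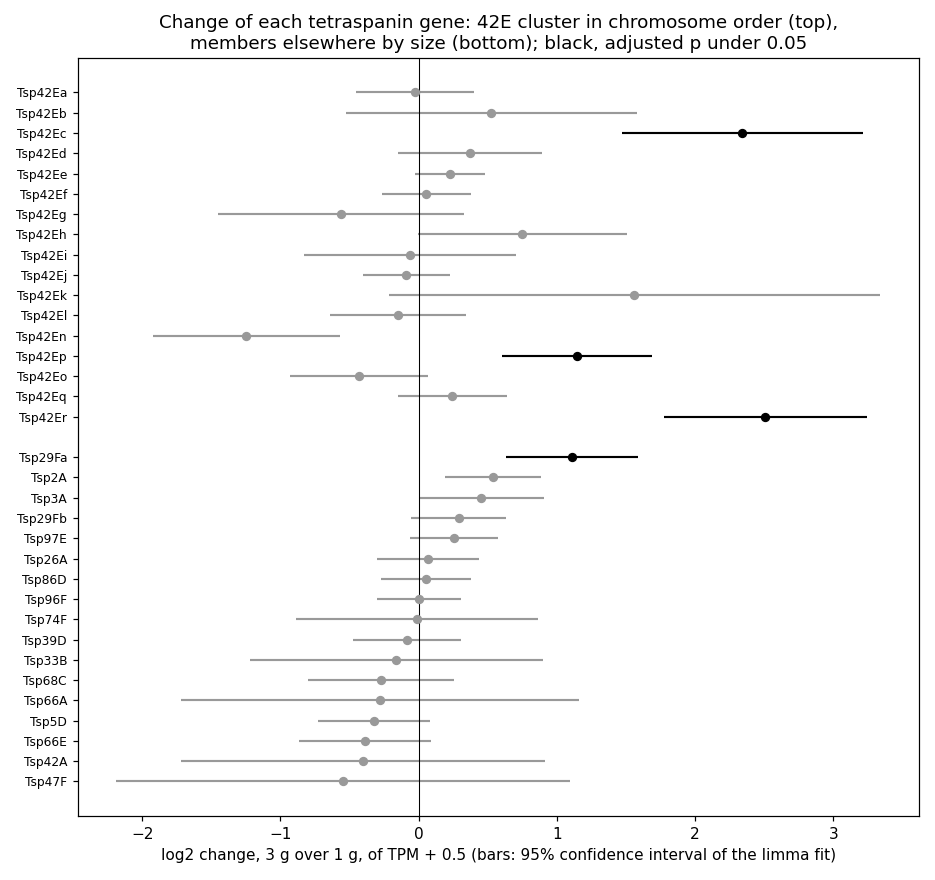
Log2 change of each member at 3 g over 1 g with its 95% confidence interval from the limma fit, the 42E members in chromosome order above and the members elsewhere by size below, called members in black. Uncalled members stand between the 3 called genes of the cluster, among them Tsp42En, whose interval lies below 0, and most members elsewhere lie within 0.5 of 0.

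Among the uncalled members of the cluster, Tsp42En had the lowest p. It read 0.94, 1.24, 0.77 and 0.35 TPM at 3 g and 1.95, 1.96, 2.83 and 3.77 TPM at 1 g, the only member with every pool at 3 g below every control pool. The log2 change of -1.25 ± 0.29 (SE) missed the threshold (adjusted p = 0.0576, limma), and at about 1 TPM it lies near the filter on low values. Tsp42Ee, the abundant member, had a log2 change of 0.22 with a 95% interval of -0.03 to 0.48, and its groups were separated only by 522.24 TPM at 3 g against 522.12 TPM at 1 g. Tsp42Ea, Tsp42Ed, Tsp42Ef and Tsp42El, all above 20 TPM, had changes between -0.15 and 0.37 and intervals that include 0. So did Tsp42Eo, Tsp42Eq and Tsp42Eh, all under 6 TPM in every library, with changes of -0.43, 0.24 and 0.75. Tsp42Ea holds Tsp42Eb within its span on the same strand, and Tsp42Ej and Tsp42Ek overlap each other, so that the split of reads within these pairs is uncertain.

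Tsp42Ej is known as Sunglasses, a lysosomal tetraspanin that takes part in the light-driven breakdown of rhodopsin in the eye. It stood at 42.3 ± 5.84 TPM at 3 g and 44.8 ± 3.67 TPM at 1 g (SD, n = 4 each), a log2 change of -0.09 with a 95% interval of -0.40 to 0.23. Photoreceptor markers summed to 18.8 to 35.2 TPM at 3 g and 68.0 to 330.1 TPM at 1 g, with 1 of 6 called, as lower, and Rh3 at 0 in some library. Among 11 genes of endosomes and lysosomes 0 were called (limma, 3 at an unadjusted p under 0.05), with a median change of 0.16. The most abundant were the lysosomal proteases cathD, at 1142 ± 85.6 TPM at 3 g and 1111 ± 229 TPM at 1 g, and Cp1, at 1022 ± 167 TPM at 3 g and 838 ± 129 TPM at 1 g.

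Tsp2A belongs to the smooth septate junctions, which seal the epithelia of the midgut and the Malpighian tubules together with Snakeskin (Ssk), Mesh and Hoka. Its levels were 61.3, 80.6, 66.2 and 57.8 TPM at 3 g and 47.5, 43.0, 52.8 and 38.6 TPM at 1 g. The groups did not overlap, but the log2 change of 0.54 ± 0.15 (SE, 95% interval 0.19 to 0.89) missed the threshold (adjusted p = 0.0979, limma), and it did so under all 18 other settings (0.37 to 0.61). In the reference annotation Tsp2A overlaps MTPAP on the other strand, so that reads of MTPAP may be counted in. Of the 3 partners 1 was called. Ssk rose, with 115, 158, 138 and 120.2 TPM at 3 g and 74.6, 68.6, 88.8 and 67.4 TPM at 1 g (log2 change 0.82 ± 0.15, adjusted p = 0.0243, limma). Among fits that rescaled or left out libraries, that call was lost without 3 g replicate 3 or control replicate 2 or 4, under median-of-ratios rescaling and without both 3 g replicate 2 and control replicate 4 (0.69 to 0.80, adjusted p = 0.0501 to 0.0913). The levels of mesh were 39.4 ± 6.15 TPM at 3 g and 24.1 ± 3.75 TPM at 1 g (adjusted p = 0.0535). The gene of Hoka, listed as CG13704, stood at 107 ± 21.3 TPM at 3 g and 76.3 ± 10.5 TPM at 1 g (adjusted p = 0.215, limma), and these last 2 genes were chosen after their values were seen.

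The 9 midgut markers summed to 63.3, 82.0, 46.5 and 83.4 TPM at 3 g and 24.0, 28.7, 25.7 and 29.1 TPM at 1 g. The sum was higher in each pool at 3 g. Within that group it was nearly equal in replicate 4, where Tsp2A was lowest, and in replicate 2, where Tsp2A was highest. Of 4 markers tested, 2 were higher, mex1 (log2 change 1.77, adjusted p = 0.0407) and Myo61F (1.14, adjusted p = 0.0327, limma). The other tested markers, GATAe (0.28, adjusted p = 0.681) and lab (-0.09, adjusted p = 0.872, limma), were not called, and the trypsin-like protease genes betaTry and Jon25Bi were at 0 in some library. The part of these markers in the values of Tsp2A and Ssk was not tested. In the pleated septate junctions, which seal epidermis and other epithelia without Tsp2A, 0 of 11 genes were called (limma, 1 at an unadjusted p under 0.05) and the median change was -0.13. The 2 most abundant were Lac, at 224 ± 49.3 TPM at 3 g and 261 ± 33.8 TPM at 1 g, and kune, at 140.2 ± 22.3 TPM at 3 g and 152 ± 9.95 TPM at 1 g.

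Tsp3A, Tsp26A and Tsp86D belong to the subgroup that brings the protease ADAM10, Kuzbanian (kuz) in flies, to the cell surface and so promotes cleavage of the receptor Notch. None of these genes was called. Tsp3A read 33.1, 38.6, 28.5 and 33.0 TPM at 3 g and 30.8, 25.4, 25.5 and 16.7 TPM at 1 g, groups that overlap (log2 change 0.45 ± 0.20, adjusted p = 0.306, limma). For Tsp26A the change was 0.07 with a 95% interval of -0.30 to 0.44, and for Tsp86D it was 0.06 with an interval of -0.27 to 0.38. In the list of kuz, its relative Kul, Notch, its ligands and the subunits of gamma-secretase, 0 of 9 genes were called (limma, 1 at an unadjusted p under 0.05), with a median change of 0.15. Their most abundant genes were the gamma-secretase subunits Psn, at 113 ± 8.41 TPM at 3 g and 102 ± 18.0 TPM at 1 g, and nct, at 79.6 ± 2.97 TPM at 3 g and 65.8 ± 13.6 TPM at 1 g. Integrins, the adhesion receptors that tetraspanins bind in many animals, and the proteins that link them to the cytoskeleton had 0 of 9 tested genes called (limma, 0 at an unadjusted p under 0.05). The integrin beta subunit mys stood at 128 ± 11.6 TPM at 3 g and 110.4 ± 11.7 TPM at 1 g, and the linker stck at 68.3 ± 6.95 TPM at 3 g and 65.5 ± 6.78 TPM at 1 g.

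Several further members outside the cluster were not called. Tsp96F, with 63.2 ± 7.24 TPM at 3 g and 63.1 ± 6.56 TPM at 1 g, had a log2 change of 0.00 with a 95% interval of -0.30 to 0.30. Tsp39D had one of -0.08 (-0.48 to 0.31), and Tsp97E one of 0.25 (-0.07 to 0.57). Tsp5D (-0.32) and Tsp68C (-0.27) had intervals of -0.72 to 0.08 and -0.80 to 0.25. Tsp66E read 128, 120.3, 119 and 109 TPM at 3 g and 209, 179, 147 and 105 TPM at 1 g. Its controls spanned a wide range, the lowest lay below every pool at 3 g, and the change of -0.39 ± 0.21 was not called (adjusted p = 0.446, limma).

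Tsp33B, Tsp42A and Tsp66A shared a pattern that ran across the groups. Tsp33B read 21.4, 6.25, 22.7 and 26.4 TPM at 3 g and 12.2, 26.6, 17.1 and 23.4 TPM at 1 g. Tsp42A read 13.7, 2.06, 11.8 and 15.4 TPM at 3 g and 8.26, 14.1, 10.2 and 15.2 TPM at 1 g. In both genes 3 g replicate 2 was the lowest of all libraries and control replicate 1 the lowest of the controls. Tsp66A did the same, with 26.9, 4.61, 24.9 and 18.2 TPM at 3 g and 10.3, 35.3, 11.9 and 29.6 TPM at 1 g. In the reference annotation it overlaps CG42661 and CG42660 on the same strand, so that their reads may be counted in. The 10 male germline markers summed to 3672, 638, 3409 and 3531 TPM at 3 g and 2345, 4940.4, 3674 and 5236 TPM at 1 g, lowest in the same libraries. None of these markers was called (limma, 0 at an unadjusted p under 0.05) and none was at 0 in a library, and the part of these cells in the 3 members was not tested. The changes of Tsp33B, Tsp42A and Tsp66A were -0.16, -0.40 and -0.28 with all libraries and 0.29, 0.21 and 0.27 without 3 g replicate 2, and none was called.

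**Figure D4:**
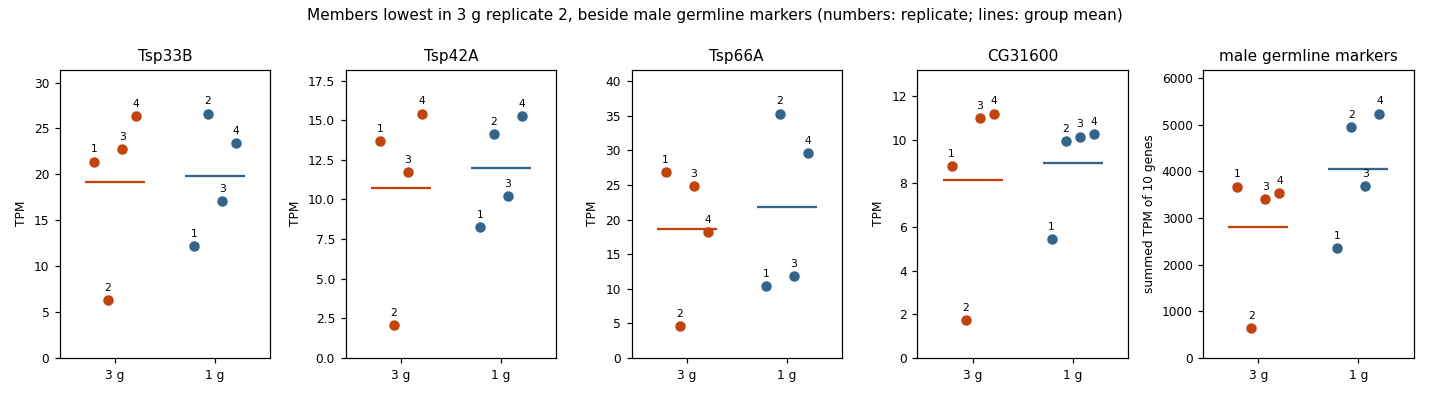
Levels in TPM on linear axes from 0 of Tsp33B, Tsp42A, Tsp66A and the related gene CG31600 in single libraries, beside the summed TPM of 10 male germline markers, with 3 g left and 1 g right, replicate numbers and group means as lines. Replicate 2 is the lowest at 3 g and replicate 1 the lowest at 1 g in all 5 panels.

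Other members stood apart in control replicate 4. Tsp74F read 25.6, 18.1, 27.5 and 14.0 TPM at 3 g and 13.9, 16.9, 17.7 and 44.2 TPM at 1 g, and Tsp42Eg read 8.95, 11.3, 7.67 and 8.73 TPM at 3 g and 8.13, 11.8, 10.98 and 32.2 TPM at 1 g. In both genes control replicate 4 was far above the other controls. Tsp42Ei was also highest in that library (20.5 TPM), with 9.07 to 17.5 TPM at 3 g and 8.00 to 16.0 TPM in the other controls. Tsp47F went the other way, with 1.41, 5.22, 5.62 and 7.23 TPM at 3 g and 14.8, 9.41, 8.24 and 1.29 TPM at 1 g. Control replicate 4 held the lowest value of all 8 libraries for 15 of the 34 members and the highest for 6. Its photoreceptor markers summed to 330.1 TPM, against 68.0 to 98.3 TPM in the other controls, and its muscle markers to 13131 TPM, against 3481 to 6106 TPM, and the part of these cells in the members' values was not tested.

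The pools at 3 g differed from one another too. Tsp42Ek read 5.02, 37.0, 6.41 and 54.9 TPM at 3 g and 8.49, 3.26, 4.45 and 5.75 TPM at 1 g. Replicates 2 and 4 at 3 g were far above every other library, while replicates 1 and 3 lay within the range of the controls, and the log2 change of 1.56 ± 0.77 was not called (adjusted p = 0.39, limma). The glue and early prepupal markers summed to 37311 and 44534 TPM in replicates 2 and 4 and to 16703 and 18596 TPM in replicates 1 and 3. Replicate 3 at 3 g was the highest of its group for 11 members, against 10 for replicate 1, 8 for replicate 2 and 5 for replicate 4. Among the 11 were Tsp42Er, Tsp42Ep, Tsp29Fa, Tsp42Eh and Tsp42Eb. Tsp42Eb read 17.7, 53.7, 68.4 and 27.9 TPM at 3 g and 29.4, 17.8, 41.2 and 19.3 TPM at 1 g, groups that overlap (log2 change 0.53 ± 0.46, adjusted p = 0.683, limma). In 3 g replicate 3 the 6 markers of epidermis and cuticle timing summed to 4654 TPM, against 532 to 1354 TPM in the other pools at 3 g and 150 to 3913 TPM at 1 g. Most of the 4654 TPM was Edg78E (3413 TPM), while most of the 3913 TPM, in control replicate 4, was Acp65Aa (3669 TPM). Between the groups Edg78E was called higher and Acp65Aa lower. The part of these markers in the members' values was not tested.

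**Figure D5:**
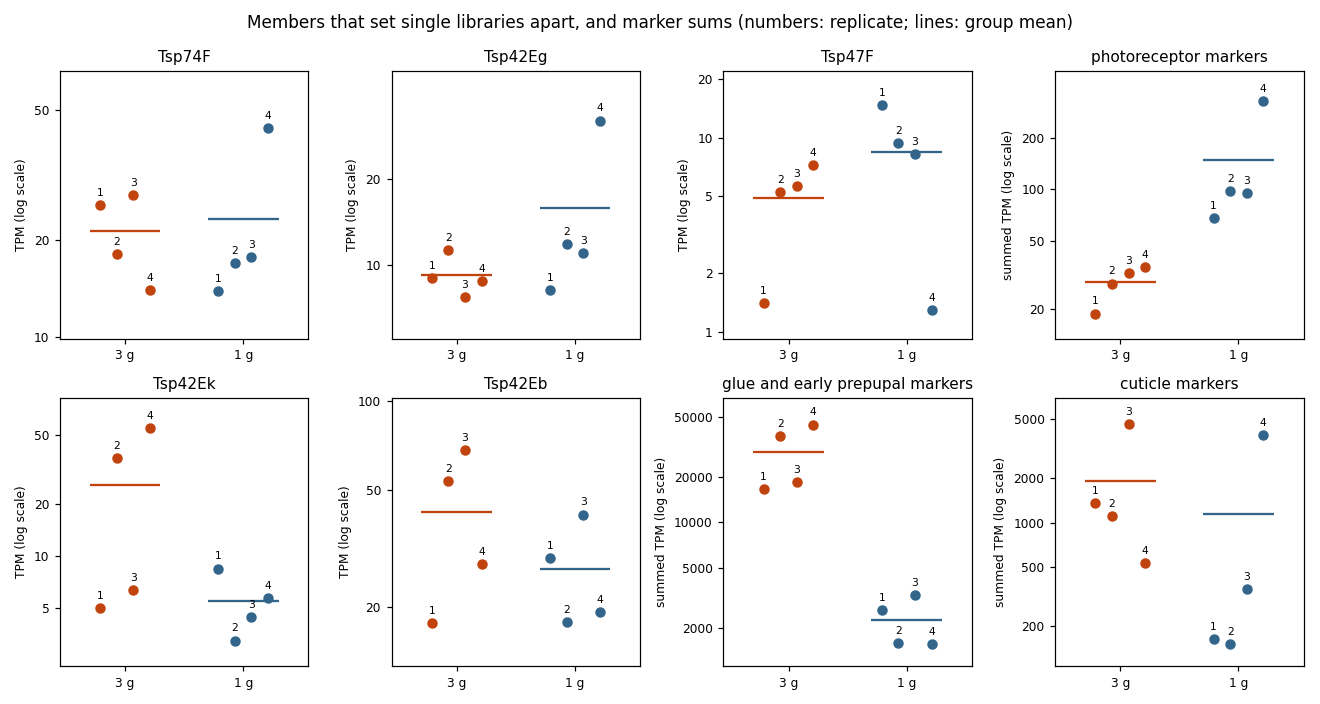
Level of 5 members in single libraries in TPM, and sums of 3 marker lists, each panel on its own log scale, with 3 g left and 1 g right, replicate numbers and group means as lines. Control replicate 4 stands apart for Tsp74F, Tsp42Eg and the photoreceptor markers, and 3 g replicates 2 and 4 for Tsp42Ek and, less far, the glue and early prepupal markers.

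RefSeq lists 3 more genes under a synonym of the tetraspanin pattern, and 1 of them was called. TM4SF, with the synonym Tsp60A, fell, with 16.5, 15.0, 22.0 and 24.7 TPM at 3 g and 52.7, 89.5, 82.9 and 118 TPM at 1 g. Every pool at 3 g lay well below every control pool. Its log2 change was -2.08 ± 0.27 (SE, adjusted p = 0.00672, limma), and it was called without each single library in turn (-2.29 to -1.91). The gene lbm (late bloomer), which lies in the 42E cluster as Tsp42Em and is known from the growth of motor synapses in the embryo, read 12.8, 17.5, 8.45 and 10.9 TPM at 3 g and 8.22, 6.78, 6.23 and 6.89 TPM at 1 g. Its groups lay close together at 3 g replicate 3 and control replicate 1 without overlapping, and the log2 change of 0.74 ± 0.22 was not called (adjusted p = 0.117, limma). CG31600, with the synonym Tsp40A, read 8.78, 1.73, 11 and 11.2 TPM at 3 g and 5.45, 9.93, 10.2 and 10.3 TPM at 1 g, lowest in the same libraries as Tsp33B, Tsp42A and Tsp66A.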

How the data were processed

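Per the labels, 8 TruSeq libraries of polyadenylated RNA, each from 4 pooled pupae, were read as 100 bp paired ends in one lane. The submitters' processing notes name Bowtie2 2.1.0, eXpress 1.5.1, Trimmomatic 0.30, DESeq and CASAVA, with no role or order. The table the authors deposited holds whole numbers, treated as a score and read as TPM times 100, because its name says normalized TPM and every library sums to the same total. Values were divided by 100. No coordinates are printed, since build, annotation and strandedness are not given in the sources used. TPM keep no depth, so counting error is unknown.

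Genes averaging 1 TPM or more were tested with limma 3.58.1 in R 4.3.3 on log2(TPM + 0.5), with an intensity trend, no covariate and Benjamini-Hochberg adjustment over all 12044. The fit was first tested on simulated data. Figures were drawn with matplotlib 3.10.9. Names, synonyms, neighbours and overlaps came from RefSeq (Release 6 plus ISO1 MT) and Ensembl BDGP6. All 34 names matched RefSeq. In the annotation 8 members overlap an entry on the same strand and 10 overlap one on the other strand, so that reads may be shared there. Sequences were not used here.

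All members by the name pattern are named. From each other list (partners in junctions, Notch, adhesion and endosomes, tissue markers), at most 4 called genes, or the 2 most abundant where none was called, are named, and exceptions are marked. Markers are given as sums. Relatives by synonym were added after the table was opened, and the symbol sun was dropped from a list because it names an ATP synthase gene. Members and lists were chosen with earlier results of these data known. Alternative settings left out each library in turn, took the replicate number as a block, dropped the trend or the filter, raised the filter to 5 TPM, used 0.1 or 1 as pseudocount, fitted robustly, or rescaled by median of ratios or by quantiles.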

Additional observations from a re-analysis of the deposited data

Results flagged for a closer look

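A single library stood far from the other 3 of its group, by Dixon's test at the 95% level, in 5 of 78 groups screened (34 members, TM4SF, lbm, CG31600, Ssk and mesh in each group), where chance flags about 1 in 20. Tsp74F was high in control replicate 4, at 44.2 TPM against 13.9 to 17.7 TPM in the other controls. Tsp42Eg was high in the same library, at 32.2 TPM against 8.13 to 11.8 TPM. Tsp42Ec was high in control replicate 3, at 2.92 TPM against 1.38 to 1.61 TPM. For Tsp42Ej, 3 g replicate 3 read 33.6 TPM and the other pools at 3 g 44.5 to 45.7 TPM. CG31600 was low in control replicate 1, at 5.45 TPM against 9.93 to 10.3 TPM.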

How the results depend on the processing

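Of 607 values of single members under other settings, 553 kept their direction and their side of the threshold, 18 lost a call, 2 gained one and 34 changed sign, and none of the 4 called members changed sign. Tetraspanins called lower numbered 1, Tsp42En, with no filter (adjusted p = 0.0479, limma) and 1 with no trend (adjusted p = 0.0453). Leaving out single libraries, or 3 g replicate 2 and control replicate 4 together (chosen after seeing the data), gave 162 to 479 genes called, 1 to 3 tetraspanins called higher, 1 to 3 called in the 42E cluster and 0 to 1 elsewhere. Without control replicate 2, Tsp42Er was the 1 member called higher, and without control replicate 3, control replicate 4 or the pair together 2 were called. Genes called numbered 275 without 3 g replicate 2, 335 without 3 g replicate 4, 162 without control replicate 2, 206 without control replicate 3 and 228 without the pair.

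Libraries with the same number had deviations that correlated at -0.379, -0.516, 0.0613 and 0.0812, so the numbers were not taken to pair them. With the replicate number as a block, 147 genes were called, with 1 tetraspanin higher, 1 in the 42E cluster and 0 elsewhere. The member called was Tsp42Er, while Tsp42Ec (adjusted p = 0.0861), Tsp42Ep (0.0922), Tsp29Fa (0.158) and the junction gene Ssk (0.11) were not called in that limma fit.

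The log2 changes that turned sign lay near 0 or had wide intervals, and none was called. Tsp96F was -0.026 under median-of-ratios rescaling and -0.0047 under quantile normalization, where Tsp74F was 0.033. With libraries left out singly or as that pair, the range was -0.074 to 0.052 for Tsp96F, -0.20 to 0.41 for Tsp74F, -0.37 to 0.39 for Tsp33B, -0.67 to 0.34 for Tsp42A and -0.56 to 0.48 for Tsp66A. For CG31600 it was -0.57 to 0.31, for Tsp42Ei -0.26 to 0.17, for Tsp42Ea -0.16 to 0.092 and for Tsp42Ej -0.13 to 0.018. Tsp86D spanned -0.061 to 0.12, Tsp42Ef -0.033 to 0.14 and Tsp26A -0.020 to 0.18. The cause of these shifts was not tested. Depth is unknown, and 4 pools a group limit which changes can be called.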
